A study of Mus musculus with 6 samples.

Results

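The genes of 10 acute-phase plasma proteins, namely Saa1, Saa2, Saa3, Saa4, Crp, Apcs, Hp, Hpx, Lcn2 and Orm1, were examined for binding of the farnesoid X receptor (FXR) in mouse liver. Their peaks were the rows of the deposited FXR peak lists whose assigned gene, the one with the nearest transcription start site (TSS), was 1 of the 10. This rule found 21 of 20040 peaks in control liver and 12 of 12495 peaks in liver without hepatocyte BCL6. The control mice, written WT, carried the genotype Bcl6 fl/fl on a C57BL/6 background. The deleted mice, written LKO, carried Alb-cre together with the same floxed alleles, so both groups shared the floxed Bcl6 locus and differed by the transgene. Albumin drives Cre in hepatocytes, and other liver cells of the LKO mice keep Bcl6. All mice were male. Their age is not given in the sources used here, and the study's methods give feeding ad libitum or a fast of 4 hours as its default, without saying which applied to these libraries. Each genotype had 2 FXR ChIP-seq libraries and 1 input library of sonicated chromatin. ChIP-seq does not measure expression of Bcl6, so its loss was not checked here.

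Acute-phase proteins are made by hepatocytes and released into blood, and the concentration of the positive ones rises in infection and tissue injury. Interleukin 6, acting through STAT3, and interleukin 1, acting through NF-kB and C/EBP factors, are the main inducers of their genes. FXR is a nuclear receptor for bile acids that binds DNA with the retinoid X receptor, most tightly at an inverted repeat of the half-site AGGTCA with a 1-base spacer, called IR1. BCL6 is a transcriptional repressor with a DNA site that resembles the STAT site.

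The WT ChIP libraries held 19022618 tags in replicate 1 and 2883717 in replicate 2, against 21287263 and 22637613 in LKO, and the inputs held 6964271 in WT and 6935001 in LKO. WT replicate 2 was therefore the thinnest library, and 86.8% of the tags behind the WT peak calls came from the other replicate. The authors called peaks on the pooled replicates of a genotype, so a count of peaks has no replicate spread. Back-calculation from the deposited log2 values gave the 21 WT member peaks a median of 55.6 tags in replicate 1 but 12.9 in replicate 2, where 9 of them had under 10. All 12 LKO member peaks had over 10 tags in both replicates. Levels below are log2 values minus the median of all shared peaks in the same library, so that 0 is the level of a typical shared peak, and a peak was shared where a WT and an LKO peak overlapped by at least 1 bp. Since each genotype's table was normalized on its own, levels across genotypes are descriptions without a test, given as mean ± SD of 2 libraries.

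A peak was listed for 8 of the 10 genes in WT and for 7 in LKO. The share of all genes that had a peak was not computed, so these gene counts have no background. Saa1 had the most in WT, with 5, followed by Hp with 4, Crp and Orm1 with 3 each, Apcs and Hpx with 2 each, and Saa3 and Saa4 with 1 each. In LKO, Hp and Orm1 had 3 each, Saa1 had 2, and Saa3, Saa4, Crp and Apcs had 1 each. Saa2 and Lcn2 had no peak in either list, and Hpx had none in LKO. For scale, 9.98% of the 9025 genes with a WT peak had 5 or more, and 5.25% of the 6877 genes with an LKO peak did. All 12 LKO member peaks overlapped a WT member peak, which is 100% with a 95% Wilson interval of 75.8 to 100%, beside 79.4% of all LKO peaks. In the other direction 12 of the 21 WT member peaks overlapped an LKO peak, or 57.1% (36.5 to 75.5%), beside 49.5% of all WT peaks. These intervals cover counting error only. Member peaks lay close to their genes. In WT 20 of 21 were within 20 kb of the TSS, against 58.4% of the list, and 7 of 21 were annotated as promoter, 33.3% (17.2 to 54.6%) against 11.4% of the list. In LKO 5 of 12 were promoter peaks, 41.7% (19.3 to 68.0%) against 11.3%.

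**Figure D1:**
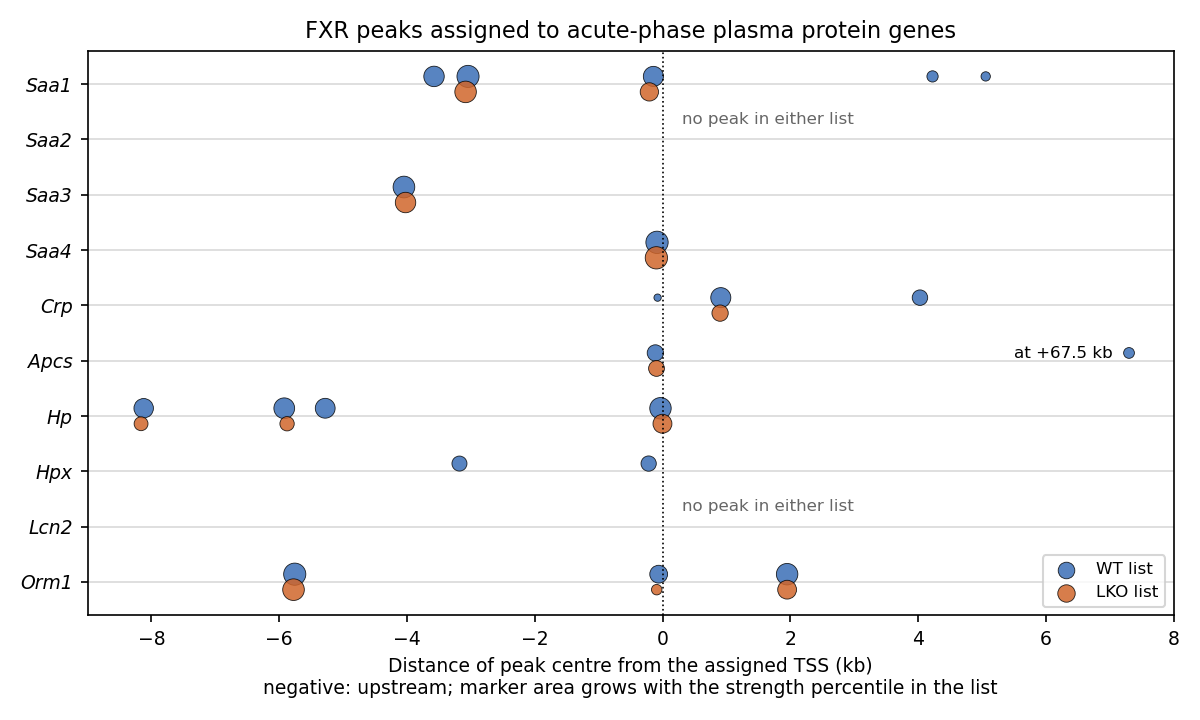
Peaks of the WT list (blue) and of the LKO list (orange) for each of the 10 genes, by distance of the peak centre from the assigned TSS in kb, with larger markers for peaks of higher strength percentile in their own list. Every orange marker has a blue one at nearly the same place, and the lone blue markers are the 9 peaks found only in WT, among them both Hpx peaks and an Apcs peak 67510 bp from the TSS.

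The Saa genes encode serum amyloid A proteins, small apolipoproteins of high-density lipoprotein. Saa1 and Saa2 are the classic liver-made acute-phase forms, Saa3 is made largely outside hepatocytes, and Saa4 is the constitutive form. The 4 genes lie together on chromosome 7, with the TSS of Saa4, Saa2 and Saa3 at 10377, 8853 and 27304 bp from that of Saa1. The strongest member peak of both lists sat on the Saa4 promoter, centred 87 bp upstream of the TSS in WT (chr7:46732585-46732795, build mm10) and 97 bp upstream in LKO. Its level was 1.31 and 1.39 in the WT libraries and 1.78 and 1.74 in the LKO libraries. The LKO values lay above both WT values, with means of 1.76 ± 0.03 and 1.35 ± 0.05, a difference of 0.41. It stood at the 93.2 percentile of strength in the WT list and the 93.3 percentile in the LKO list. The input signal here was high for an input, at 1.84 log2 tags in WT, where the 95th percentile of all peaks was 1.85, and at 2.51 in LKO, above its 95th percentile of 2.49. These input values are not centred, unlike the levels above. Uncentred, the ChIP values of this peak were 6.33 and 6.92 in WT and 6.82 and 6.59 in LKO. The part of the input in the peak was not tested.

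This peak held an IR1 match with 1 mismatch in 12 scored bases, the fewest of any member peak within 100 bp of the centre. The Hpx promoter peak also held a match with 1 mismatch, at its edge. The match was centred 10 bp from the WT peak centre and at the LKO peak centre. The stretch of the peak upstream of the TSS (chr7:46732604-46732795, minus strand, GRCm38.p6) is shown to place that match, which is in capitals.
Saa4 promoter peak: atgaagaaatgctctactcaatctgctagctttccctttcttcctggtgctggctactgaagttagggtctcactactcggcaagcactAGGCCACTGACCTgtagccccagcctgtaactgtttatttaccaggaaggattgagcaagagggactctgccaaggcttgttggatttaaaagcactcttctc

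Saa1 carried 2 shared peaks. The stronger one was centred 3045 bp upstream of the TSS in intergenic sequence (chr7:46745920-46746130) and had levels of 1.07 and 1.24 in WT and of 1.01 and 1.18 in LKO. The ranges overlapped, and the difference of the means was -0.06 against a pooled SD of 0.12. The other lay on the promoter, 144 bp upstream of the TSS (chr7:46743019-46743229), with 0.19 and -0.11 in WT and 0.05 and -0.01 in LKO. There too the ranges overlapped, and the means were 0.04 ± 0.22 and 0.02 ± 0.05. Its LKO peak was centred 63 bp away from the WT one, the largest shift among the 12 pairs, whose median was 28 bp. A pair of predicted RefSeq transcripts start Saa1 at 46743181, inside this peak. The distal peak held no AGGTCA half-site and no IR1 match, but 1 match to the C/EBP motif TTGCNNAA, in capitals in its sequence on the minus strand.
Saa1 peak 3045 bp upstream: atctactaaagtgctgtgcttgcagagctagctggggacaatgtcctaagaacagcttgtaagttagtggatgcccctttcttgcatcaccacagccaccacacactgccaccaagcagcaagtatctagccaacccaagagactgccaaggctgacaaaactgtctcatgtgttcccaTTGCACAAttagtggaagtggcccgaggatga

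The WT list alone held 3 further Saa1 peaks. The strongest of these was centred 3577 bp upstream (chr7:46746452-46746662), 532 bp from the shared distal peak, with levels of 0.34 and -0.01 and a strength percentile of 76.7. The LKO peak at the shared distal site ended 286 bp short of it. The other 2 lay 4225 and 5057 bp downstream of the TSS, beyond the gene's end (chr7:46738650-46738860 and chr7:46737818-46738028). They were weak, with levels between -1.23 and -2.05 over both libraries and 3.35 to 3.45 estimated tags each in WT replicate 2. The former overlapped an RLTR14 element, a retroviral repeat of the ERV1 class.

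No peak was assigned to Saa2, although its promoter is nearly the same as that of Saa1. The peak nearest to the Saa2 TSS was 5276 bp away in WT and 5770 bp in LKO. It was assigned to Saa1, as one of the peaks upstream of both genes. Within 20 kb of the Saa2 TSS lay 6 peaks in WT and 3 in LKO. Over the 250 bases upstream of the TSS in the RefSeq promoter set (GRCm38.p6), 238 positions were identical, 11 were substituted and 2 were gaps. An identity of 94.8% resulted, whereas the other 14 pairs among the promoters of the Saa genes, Crp and Apcs had 40.4 to 48.2% in the same global alignment. The 2 sequences are shown to let them be compared, with the differing bases in capitals, Saa1 on the minus strand (chr7:46742981-46743230) and Saa2 on the plus strand (chr7:46751583-46751832).
Saa1 promoter: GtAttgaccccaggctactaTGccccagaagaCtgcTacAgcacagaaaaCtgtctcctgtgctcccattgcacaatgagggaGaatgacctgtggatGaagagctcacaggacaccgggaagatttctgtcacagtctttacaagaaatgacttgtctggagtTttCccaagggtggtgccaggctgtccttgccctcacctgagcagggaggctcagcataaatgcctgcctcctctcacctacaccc
Saa2 promoter: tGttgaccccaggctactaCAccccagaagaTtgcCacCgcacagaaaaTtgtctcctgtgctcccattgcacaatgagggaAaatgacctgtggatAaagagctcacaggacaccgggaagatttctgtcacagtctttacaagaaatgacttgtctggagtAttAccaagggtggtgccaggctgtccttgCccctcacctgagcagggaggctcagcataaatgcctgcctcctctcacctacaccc
Both held 1 AGGTCA half-site, at 164 to 159 bp upstream in Saa1 and 165 to 160 bp upstream in Saa2, and 1 C/EBP match, at 182 to 175 and 183 to 176 bp upstream. No differing base fell in either. The authors kept uniquely aligned 100-bp reads. Among 100-base windows taken every 10 bases, 2 of 12 in the Saa1 promoter peak and 3 of 21 in the Saa2 promoter window had another place within 100 kb that differed by at most 2 bases, and no window was identical to another. Whether read alignment between the copies bears on the missing Saa2 peak was not tested.

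The single Saa3 peak was shared and lay 4048 bp upstream of the curated TSS in WT (chr7:46719619-46719829). Its level was 0.90 and 0.69 in WT and 0.44 and 0.71 in LKO. The ranges overlapped, while the means of 0.79 ± 0.14 and 0.57 ± 0.19 differed by -0.22, more than the pooled SD of 0.17. A predicted Saa3 transcript starts at 46719615, so the peak lies at that start, 109 bp from its centre, rather than at the curated promoter. The peak held none of the motifs searched for.

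**Figure D2:**
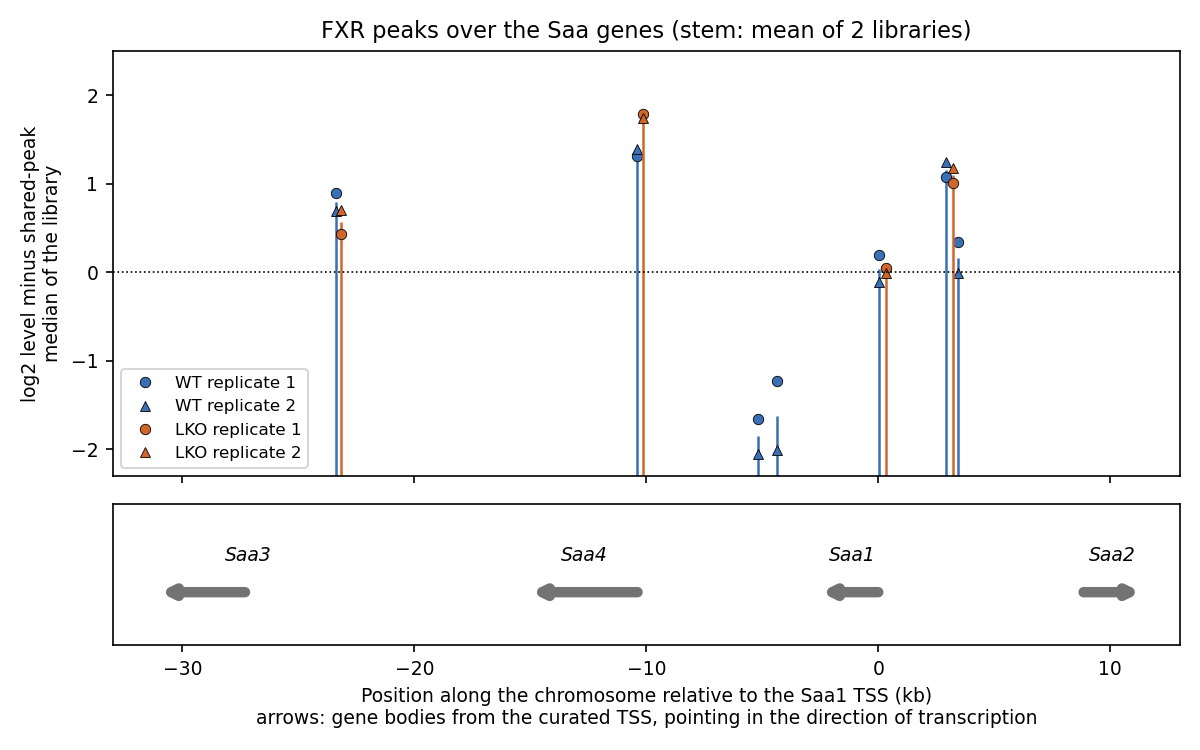
Level of each Saa peak in each library (log2 minus the shared-peak median of that library, circles for replicate 1 and triangles for replicate 2), by position in kb from the Saa1 TSS, with the gene bodies drawn underneath; WT and LKO markers of a pair are set slightly apart. Peaks stood over the Saa4 promoter, upstream of Saa1 and Saa3 and on the Saa1 promoter in both genotypes, and none was called at Saa2.

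Crp and Apcs encode the pentraxins C-reactive protein and serum amyloid P component, pattern recognition proteins of plasma. In mice Apcs is the strongly induced one. They lie 196998 bp apart on chromosome 1. The shared Crp peak was in exon 2 of 2, centred 911 bp downstream of the TSS (chr1:172698862-172699072). It had levels of 0.16 and -0.09 in WT and of -0.79 and 0.17 in LKO. The LKO replicates differed more from each other than the genotypes did, with means of 0.04 ± 0.18 and -0.31 ± 0.68. The Crp promoter peak, 78 bp upstream (chr1:172697873-172698083), was in the WT list only. Its strength percentile of 0.342, the lowest of the WT member peaks, rested on replicate 2, with an estimated 27.4 tags in replicate 1 and 1.79 in replicate 2. By replicate 1 alone it stood at the 29.4 percentile and by Peak Score at the 29.5 percentile, and other member peaks were then weaker, with the Saa1 peak 5057 bp downstream lowest by replicate 1 (14.3) and the distal Apcs peak lowest by Peak Score (15.1). The remaining Crp peak, 4028 bp downstream (chr1:172701979-172702189), was also found only in WT. The shared Apcs peak was on the promoter, 113 bp upstream of the TSS (chr1:172895062-172895272). Its level was -0.30 and -1.31 in WT and 0.01 and -0.77 in LKO, so that the ranges overlapped and replicate 2 lay under replicate 1 in both genotypes. Means were -0.80 ± 0.71 and -0.38 ± 0.55. The other Apcs peak, 67510 bp downstream (chr1:172827439-172827649), was in WT only with levels of -1.63 and -1.73.

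Hp encodes haptoglobin, which binds free hemoglobin, and Hpx encodes hemopexin, which binds free heme. Hp had a promoter peak centred 33 bp upstream of the TSS (chr8:109579100-109579310), with 0.20 and 1.09 in WT and 0.44 and -0.15 in LKO. WT replicate 2 stood above the other 3 libraries, the ranges overlapped, and the means were 0.64 ± 0.63 and 0.14 ± 0.41. The upstream peak at 5921 bp (chr8:109584988-109585198) had 0.18 and 0.40 in WT and -0.22 and -0.91 in LKO. The one at 8121 bp (chr8:109587188-109587398) had -0.20 and -0.10 in WT and -0.38 and -0.84 in LKO. At both upstream peaks the LKO values lay below both WT values. The differences of the means were -0.85 at 5921 bp, with a pooled SD of 0.36, and -0.46 at 8121 bp, with a pooled SD of 0.24. The remaining Hp peak, 5280 bp upstream (chr8:109584347-109584557), was found only in WT, with levels of -0.34 and 0.26 and a percentile of 71.5. As at Saa1, it neighboured a shared peak, 641 bp from it, and the LKO peak there ended 389 bp short of it. These 2 pairs of neighbouring WT peaks, at Saa1 and at Hp, were the only WT-only member peaks with an LKO peak within 500 bp.

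Both Hpx peaks were in the WT list only. The promoter peak, 218 bp upstream of the TSS (chr7:105600229-105600439), had levels of -1.15 and -0.83. The other, 3179 bp upstream (chr7:105603190-105603400), had -0.71 and -1.33. Both were under the median strength of the list, at the 38.0 and 36.4 percentiles, with 5.51 to 7.81 estimated tags in WT replicate 2. The nearest LKO peak to the Hpx TSS was 1855293 bp away.

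Orm1 encodes alpha-1-acid glycoprotein, a carrier of basic and neutral drugs in plasma. It was the one member with several peaks that kept all of them in both lists. The strongest was centred 5757 bp upstream of the TSS (chr4:63338694-63338904), with 0.96 and 1.48 in WT and 1.33 and 0.97 in LKO. The ranges overlapped and the means differed by -0.07. The peak in intron 5 of 5, 1949 bp downstream (chr4:63346400-63346610), had 0.48 and 0.85 in WT and 0.44 and -0.19 in LKO, so LKO lay below WT, if only just in replicate 1, with means of 0.12 ± 0.44 and 0.66 ± 0.26. The promoter peak, 61 bp upstream (chr4:63344390-63344600), had -0.43 and -0.63 in WT and -0.49 and -1.49 in LKO, overlapping ranges. Of the 12 windows of 100 bases in the intron peak, 1 was identical to another place within 100 kb, and in the promoter peak the nearest other place differed by 10 bases. In the peak 5757 bp upstream the nearest other place differed by 51 bases. Orm2 and Orm3, close copies of Orm1, lie next to it, so some reads in the intron peak may be hard to place. Whether read placement bears on the Orm1 levels was not tested.

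Lcn2 encodes lipocalin 2, which binds the iron carriers of bacteria, and is among the genes most strongly induced in inflamed liver. No peak was centred within 20 kb of its TSS in either list. The nearest one was 20873 bp away in WT and 20871 bp in LKO, was shared and was assigned to Ptges2.

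Over the 12 shared member peaks the level differed by a median of -0.29 between LKO and WT, beside 0.03 over all 9918 shared peaks, of which 90% lay between -0.82 and 1.11. The LKO values lay above both WT values at 1 of the 12, the Saa4 promoter, beside 29.8% of all shared peaks. They lay below both WT values at 3, the Hp peaks at 5921 and 8121 bp upstream and the Orm1 intron, beside 25.2% of all. At the other 8 the ranges overlapped. The count of lower members thus equalled the share over all shared peaks and that of higher members was under it. The order of the peaks was alike in both genotypes, with Pearson's r = 0.89 and Spearman's rho = 0.92 over the 12 peaks, as a description across peaks that share their libraries. In WT the Saa4 promoter, the distal Orm1 peak and the distal Saa1 peak led, with means of 1.35 ± 0.05, 1.22 ± 0.37 and 1.16 ± 0.12. Both Saa4 values lay above both Saa1 values, and those of Orm1 overlapped the values of either. The same 3 led in LKO, where the Saa4 mean of 1.76 ± 0.03 stood above 1.15 ± 0.25 for Orm1 and 1.09 ± 0.12 for Saa1. The LKO replicates differed at member peaks by a median of 0.52, against 0.28 over the whole LKO list, and 9 of 12 had the lower value in replicate 2. In WT the median was 0.35, against 0.36 over the list.

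**Figure D3:**
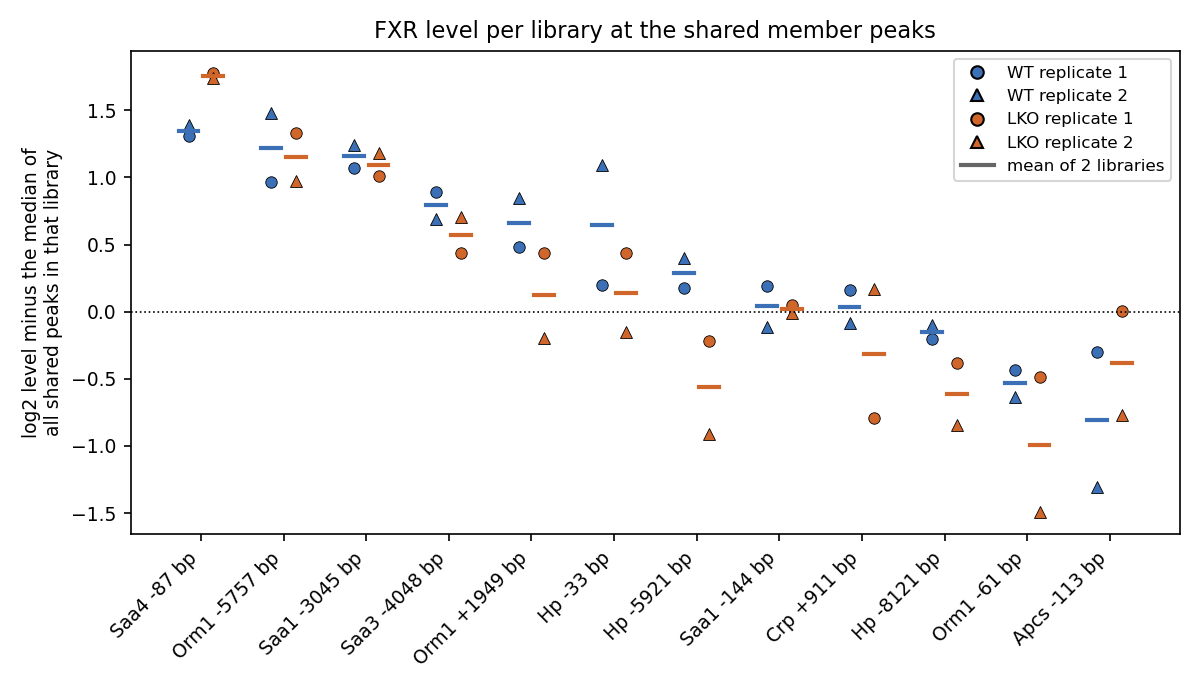
Level in each library at the 12 shared member peaks (log2 minus the median of all shared peaks in that library), ordered by WT mean, with circles for replicate 1, triangles for replicate 2 and a line for the mean of 2 libraries. The Saa4 promoter is the one peak with both orange markers above both blue ones, and the Hp peaks at -5921 and -8121 bp and the Orm1 intron peak at +1949 bp have both below.

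The direction at a single peak depended on the scale. On the values as deposited the median over all shared peaks moved to -0.30 and that over members to -0.61, with 0 members above and 8 below, beside 12.9% and 37.3% of all shared peaks. Centred on the median of all peaks of each list, the medians were -0.45 and -0.76, and 11 members lay below and 0 above, beside 58.3% and 9.43%. As tags per 10000000 of the library total, they were -1.12 and -1.43, again with 11 below and 0 above, beside 85.3% and 1.54%. Relative to the median of all shared peaks, that of the members was -0.31 on each scale, by construction. The Saa4 promoter had the higher LKO level when set against other shared peaks, while on the last scales its difference turned to -0.067 and -0.74. The Apcs promoter, with overlapping ranges and a difference of 0.42 on the main scale, likewise turned to -0.055 and -0.73.

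Member peaks found only in WT were weaker than the shared ones. The 12 shared member peaks had a median strength percentile of 82.3 in the WT list (44.9 to 93.2), and the 9 WT-only ones 36.4 (0.342 to 76.7). The whole list behaved likewise, with 72.2 for shared and 29.8 for WT-only peaks. Of the 13 member peaks at or above median strength, 11 were shared, beside 75.5% of such peaks in the list. Below the median 1 of 8 was shared, the Apcs promoter, beside 23.5%. The 2 stronger WT-only peaks, at Saa1 and Hp, fell where 77.3% of all WT peaks were shared. Estimated tags in WT replicate 2 ran from 1.79 to 16.6 at the WT-only member peaks and from 5.6 to 38.8 at the shared ones.

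**Figure D4:**
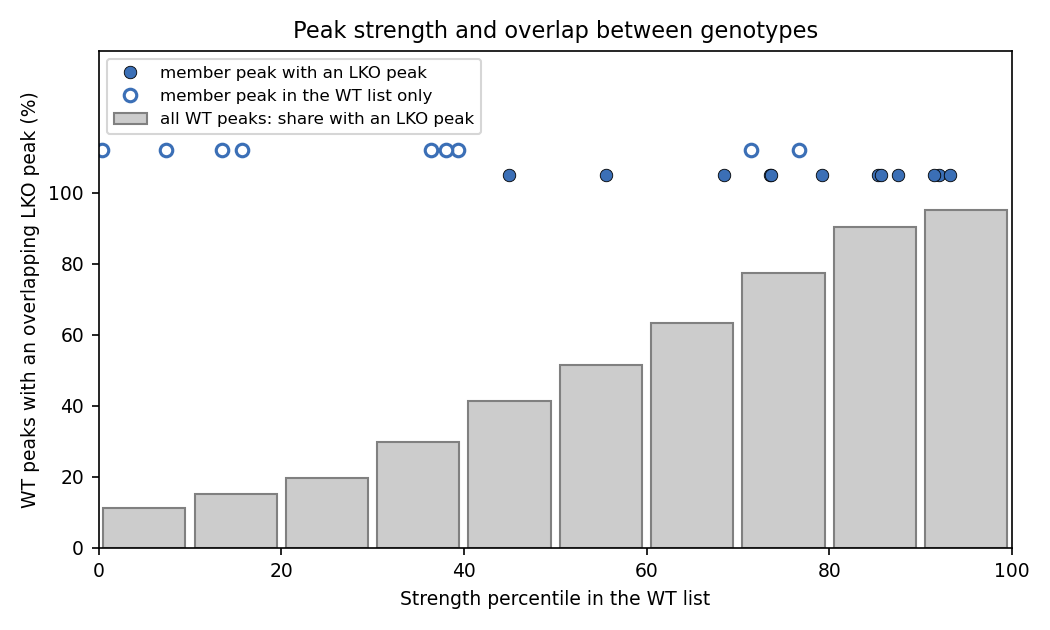
Share of all WT peaks with an overlapping LKO peak (grey bars, in %) in steps of 10 percentiles of strength in the WT list, with the 21 WT member peaks marked above at their own percentiles, filled where shared and open where WT only. The bars climb from 11.2% to 95.3%, and 7 of the 9 open markers lie in the weaker part of the list, under the median.

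Sequence under the member peaks was searched for the FXR element and for motifs of the acute-phase regulators. An IR1 (AGGTCANTGACCT on either strand with up to 2 mismatches, searched in the central window that reaches 100 bp to each side) was found in 3 of 21 WT member peaks, 14.3% (4.98 to 34.6%), beside 11.8% of the WT list and 0.893% of windows 2 kb away. No window 2 kb from a member peak held one (0 of 21), which allows a share of up to 14.3% if 3 counts are taken as the limit of a count of 0, or 15.5% as the upper Wilson bound. In LKO it was 2 of 12, 16.7% (4.70 to 44.8%), beside 16.2%. The sites are shown in capitals with 6 bases on each side, since they are the matches to the element of the factor that was precipitated, and the second Hpx site, at the edge of the promoter peak, lay beyond the central window. All are on the plus strand.
Saa4 promoter, chr7:46732694-46732706: ggctacAGGTCAGTGGCCTagtgct
Orm1 5757 bp upstream, chr4:63338771-63338783: atccatGGGTCTGTGACCTggccag
Hpx 3179 bp upstream, chr7:105603337-105603349: cgcagcACGGCACTGACCTtgactg
Hpx promoter, chr7:105600426-105600438: cttctgAGGTCACTCACCTctacag
Counted from 1 at the 5′ end of the element, with the consensus base first, the substitutions were A10G at Saa4, A1G and A6T at Orm1, G2C and T4G at the distal Hpx peak and G9C at the Hpx promoter. By the mean of both libraries the Saa4 and Orm1 peaks were the top 2 members in the WT list, whereas both Hpx peaks were weak and WT only. The distal Saa1 peak, without an IR1 match, stood above that Orm1 peak by replicate 1 (percentiles of 90.9 and 89.7) and by Peak Score (91.6 and 91.3). Half-sites (AGGTCA, exact, either strand, anywhere in the peak, and contained in some of the IR1 sites) occurred in 9 of 21 WT member peaks, 42.9% (24.5 to 63.5%), beside 41.0% of the list.

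The C/EBP motif (TTGCNNAA, exact, either strand) was found in 10 of 21 WT member peaks, 47.6% (28.3 to 67.6%), beside 17.1% of the WT list, and in 6 of 12 LKO member peaks (interval 25.4 to 74.6%), beside 15.4%. It was in 5 of the 7 WT promoter peaks, those of Saa1, Saa4, Hp, Hpx and Orm1, beside 9.73% of all WT promoter peaks, and in 5 of the 14 outside promoters, beside 18.0%. These shares are descriptions without a test, and 10.8% of 32851 RefSeq promoter windows of 300 bases held the motif. Among the member windows it was found at Saa1, Saa4 and Hpx, but also at Saa2, Saa3 and Lcn2, which had no promoter peak in either list. The windows of Crp and Apcs held none. The motif was thus not confined to member promoters with an FXR peak. Matches are shown in capitals with 6 bases on each side, read on the strand that carries the motif, because among the motifs searched this one had the member share farthest from that of the list. RefSeq promoter windows of Hp and Orm1 were not used here, and their promoter sites are only named.
Saa1 promoter, chr7:46743155-46743162, minus strand: ctcccaTTGCACAAtgaggg
Saa1 3045 bp upstream, chr7:46745944-46745951, minus strand: ttcccaTTGCACAAttagtg
Saa4 promoter, chr7:46732648-46732655, plus strand: tccctcTTGCTCAAtccttc
Hpx promoter, chr7:105600309-105600316, minus strand: ggaaatTTGCTGAAgggggt
Hp 5921 bp upstream, chr8:109585075-109585082, minus strand: catgttTTGCATAAtttctg
Hp 5921 bp upstream, chr8:109585012-109585019, plus strand: gtctgtTTGCTGAActaaat
Hp 5280 bp upstream, chr8:109584548-109584555, minus strand: caaacaTTGCATAAgtgagg
Orm1 5757 bp upstream, chr4:63338867-63338874, plus strand: cttccgTTGCACAAcctagg
Crp 4028 bp downstream, chr1:172702061-172702068, minus strand: gtgctaTTGCTCAAtcttct
The same 8 bases, TTGCACAA, stood in both shared Saa1 peaks and the distal Orm1 peak of the WT list. The LKO peak at the distal Saa1 site, centred 38 bp away, did not cover it. The STAT motif (TTCNNNGAA, which sites of BCL6 also match) was found in 3 of 21 WT member peaks, 14.3% (4.98 to 34.6%), beside 6.90% of the list, and in 1 of 12 LKO member peaks, 8.33% (1.49 to 35.4%), beside 6.46%. The share of the list lay inside the interval of the members in both. The WT peaks with a match were the Hp peak 5921 bp upstream, the Hpx peak 3179 bp upstream and the Orm1 peak 5757 bp upstream. The NF-kB motif (GGANTTTCC) was found in 1 of 21 in WT, the Hp peak 5280 bp upstream, or 4.76% (0.846 to 22.7%) beside 0.853% of the list. In LKO it was found in 0 of 12, with an upper Wilson bound of 24.2%, beside 0.912%.

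**Figure D5:**
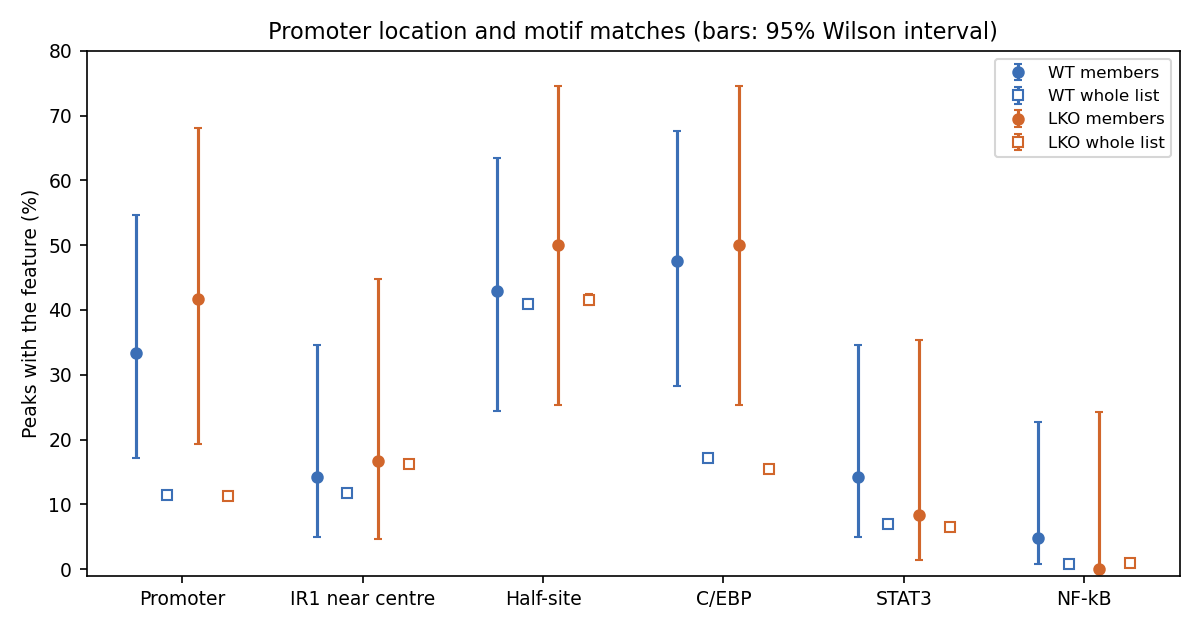
Share of peaks (%) annotated as promoter or holding each motif, for member peaks (filled circles) and the whole list (open squares) of WT (blue) and LKO (orange), with 95% Wilson intervals that cover counting error over peaks. Members lie above the list for promoter location and for the C/EBP motif, at 47.6% against 17.1% in WT, while for the IR1 and the half-site the share of the list lies inside the interval of the members.

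Other genes of the acute-phase response also had FXR peaks. In the whole lists 9025 genes had a WT peak and 6877 an LKO peak. Their share of all genes was not computed, so the gene counts below have no background. Of all peaks, 49.5% in WT and 79.4% in LKO were shared. Of 18 genes of the interleukin 6, interleukin 1 and glucocorticoid pathways and their factors, 15 had a WT peak and 13 an LKO peak. In this set 32 of 57 WT peaks (56.1%) and 32 of 43 LKO peaks (74.4%) were shared. Its strongest peaks in both lists were those of Il1r1, the interleukin 1 receptor, 45371 bp upstream (levels of 2.99 and 3.28 in WT and of 3.16 and 3.35 in LKO), of Socs3, the feedback inhibitor of STAT3 signalling (1.89 and 2.06 against 2.40 and 2.30), and of Stat3 itself, in intron 1 (1.55 and 1.84 against 1.30 and 1.19). Socs3 thus lay higher in LKO and Stat3 lower on this scale, and the Il1r1 ranges overlapped. Of all shared peaks, 29.8% lay higher and 25.2% lower in this way, and other scales are not given for these genes. Irak4, a kinase of the interleukin 1 receptor, and Cebpd, which encodes a C/EBP factor, had a WT peak only, at the 22.8 and 75.1 percentiles.

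Among 16 further positive acute-phase genes, 14 had a WT peak and 12 an LKO peak. Of their peaks, 19 of 32 in WT (59.4%) and 19 of 21 in LKO (90.5%) were shared. The strongest were the promoter peaks of Itih3, a heavy chain of the inter-alpha-trypsin inhibitor, and of Mbl1, a mannose-binding lectin, and a peak 2857 bp upstream of Cp, the copper carrier ceruloplasmin. Itih3 had 1.54 and 1.71 in WT and 1.76 and 2.07 in LKO, higher in LKO without overlap, as were 29.8% of all shared peaks. Mbl1 and Cp had overlapping ranges. Steap4, Mbl2 and Serpina3n had peaks only in WT, none above the 47.2 percentile, and Hamp2 only in LKO, at the 16.4 percentile.

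All 8 negative acute-phase genes, whose products fall in plasma during inflammation, had peaks in both lists. Of their peaks, 27 of 47 in WT (57.4%) and 27 of 28 in LKO (96.4%) were shared. Rbp4, the plasma carrier of retinol, had the strongest, on its promoter, with 2.25 and 2.66 in WT and 2.29 and 2.77 in LKO. Those of Trf (transferrin) and Alb (albumin) followed. The strongest member peak, that of Saa4, was thus weaker than the strongest of Il1r1 and Rbp4 in both lists. Of 7 genes for receptors or carriers of the member proteins, 4 had a WT peak and 2 an LKO peak. Here 15 of 23 WT peaks (65.2%) and 15 of 17 LKO peaks (88.2%) were shared. Scarb1, which encodes the high-density lipoprotein receptor SR-B1, led with 2.90 and 3.31 in WT and 3.30 and 3.50 in LKO, and Lrp1, which encodes the receptor for hemopexin-bound heme, had 2.20 and 2.42 against 2.14 and 2.21. Lrp2 and Fcgr2b had peaks in WT only.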

How the data were processed

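FXR ChIP-seq of male liver was analysed from 4 ChIP and 2 input libraries, grouped by their labels. Per the study's methods, the authors crosslinked chromatin with DSG and formaldehyde, precipitated FXR with antibody E4B8P and kept uniquely aligned reads on mm10. The submitters' processing notes name Bowtie 1.2 and HOMER 4.10. The file headers show that the authors ran HOMER in factor style on pooled replicates, then DESeq2 against input, and kept peaks past an FDR of 0.05 and a log2 fold of 1. The deposited values per library are log2 tags, as judged from their range, since the header calls them tag counts, and they were normalized within each genotype's table, which shrinks low values. The deposited Peak Score is a signal of the pooled libraries and served only as an alternative ranking. Deposited columns of ChIP against input (fold change, p-value and adjusted p-value) are the authors' comparisons and were not used.

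Peaks of 211 bp (WT) and 205 bp (LKO) were compared by overlap of at least 1 bp. The 2 log2 ChIP values of a peak were averaged as its strength and ranked within its list. Estimated tags were 2 to the log2 value, times the library total over the mean total of the table. Levels were centred on the shared-peak median of each library. Whether replicates came from separate mice is not stated for these libraries beyond their distinct labels. No test was run, because the tables are on separate scales. Wilson intervals are at 95%. Sequence and annotation were from GRCm38.p6, which has the coordinates of mm10, and promoters from RefSeq, with 8 of 10 members matched. Python 3.11.15 was used with pysam 0.24.0, Biopython 1.88, scipy 1.17.1, pandas 2.3.3, matplotlib 3.10.9 and numpy 2.4.6, and overlap and motif code was tested on simulated data.

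The members and gene lists were chosen with earlier results of these data known. Named were every member and its peaks, with values in every library for shared peaks and for the strongest peak of each member. Genes of the 4 lists were named where they had a peak in 1 list only or held 1 of the 3 strongest peaks of their list.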

Additional observations from a re-analysis of the deposited data

How the results depend on the processing

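Counts of member peaks stayed within 1.5 times with a limit on input or on distance, or with peaks within 20 kb of a member TSS whatever the assigned gene. Keeping peaks at or above the median strength left 13 in WT and 7 in LKO. At least 10 estimated tags in both replicates, chosen after seeing the data, left 12 in WT, and 83.3% of these had an LKO peak, while in replicate 1 alone all 21 passed. Shares of shared peaks stayed inside the main interval under every other overlap rule, strength limit, equal list length and input limit. With at most 1 mismatch the IR1 share of WT member peaks was 4.76%. The median LKO minus WT difference was -0.76 centred on each list's own median and -1.43 as tags per 10000000. The Saa4 promoter then turned to -0.067 and -0.74 and the Apcs promoter to -0.055 and -0.73. The scales' own construction sets these shifts. Leaving out 1 library at a time gave medians from -0.28 to -0.17. With 2 libraries per group no peak can then move beyond its pooled SD, so that limit says nothing on stability. The sign changed in some runs at the Crp exon, the Apcs and Orm1 promoters, the distal Orm1 peak and both shared Saa1 peaks. At the Crp exon the difference went from -0.35 to 0.13 without LKO replicate 1. The sign held at the shared Hp peaks, the Orm1 intron, Saa3 and Saa4. The median percentile of WT member peaks was 66.6 by replicate 1, 68.2 by replicate 2 and 69.3 by Peak Score, against 71.5 by the mean of both, and that of LKO ones 66.2, 54.0 and 63.3 against 61.2. The 0.342 percentile of the Crp promoter peak rested on WT replicate 2. No paired analysis was possible because the labels link no WT library to an LKO library. No result came from a test, and the genotypes' tables were normalized separately. Depth limits mainly WT replicate 2, and a gene without a peak is one without a call at this depth.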

Other observations

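Some peaks lay within 20 kb of a member TSS but were assigned to a neighbouring gene, 4 in WT and 2 in LKO. Next to Orm1, the WT list had a peak 994 bp downstream of the Orm3 TSS, with levels of -0.40 and -0.95, and 2 Orm2 peaks, 1 on the promoter at 137 bp upstream, with a mean of -0.09 ± 0.12, and 1 at 2437 bp upstream, with -0.67 ± 0.39. The first and the Orm2 promoter peak were shared, with LKO levels of -0.70 and 0.08 for Orm3 and of -0.63 and -1.22 for the Orm2 promoter. Orm2 promoter levels thus lay lower in LKO without overlap, as did 25.2% of all shared peaks, while Orm3 ranges overlapped. Orm2 and Orm3 encode further forms of alpha-1-acid glycoprotein. Near Hp, a weak WT-only peak on the Dhx38 promoter, 137 bp from its TSS, had levels of -1.80 and -1.47.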
